A study of Homo sapiens with 9 samples.

Results

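The NF-kB transcription factor genes and the genes of their feedback inhibitors were followed through 7 days of PRMT inhibition in A549, an established human cell line of epithelial character that was derived from lung adenocarcinoma. The set has 10 genes of the 51796 in the count table, chosen by name with earlier results of these data known. NFKB1, NFKB2, RELA, RELB and REL code for the 5 subunits, and NFKBIA, NFKBIE, TNFAIP3, BIRC3 and TRAF1 for proteins that act on the pathway and are themselves switched on by it. Cells of the first group were given MS023, which inhibits type I PRMTs, the enzymes that place asymmetric dimethylarginine on proteins. Cells of the second were given GSK591, which inhibits PRMT5, the main source of symmetric dimethylarginine. Both were used at 1 µM, and the control group received DMSO, the solvent. Each group had 3 libraries of total RNA freed of ribosomal RNA. Treated plates were seeded with more cells than control plates (a factor of 0.4 against 0.2 of the same power of 10), so that in each comparison with DMSO the seeding cannot be told apart from the inhibitor. All cells came from 1 line, the labels do not say that the replicates were separate cultures, and the p-values therefore measure the spread between these libraries.

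NF-kB acts as dimers of its subunits. In resting cells the dimers are held in the cytoplasm by IkB proteins, and signals from receptors of the TNF, interleukin-1 and Toll-like families activate the IKK kinases, which mark IkB for destruction. This canonical arm releases mainly RelA (RELA) paired with p50, the processed product of NFKB1. In the non-canonical arm the kinase NIK (MAP3K14) leads to the processing of p100, the product of NFKB2, to p52, which pairs with RelB. Many genes that NF-kB turns on code for its own brakes, such as IkB-alpha (NFKBIA), IkB-epsilon (NFKBIE) and the ubiquitin-editing protein A20 (TNFAIP3). In lung epithelium the pathway is best known for driving inflammatory gene expression. PRMT5 has been reported to methylate RelA, and CARM1, a type I enzyme, to act with NF-kB as a coactivator.

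Most of these genes have a match to the DNA sequence that NF-kB binds in their promoters. RefSeq promoter windows (GRCh38.p14, 250 bases before to 50 after each annotated start) were present for 8 of the 10 genes, not for RELB and NFKBIE. They were searched on both strands for the kB consensus. It was found in 7 of the 14 windows and in 6 of the 8 genes, against 11.3% of all 35116 windows and 13.3% of all 27305 genes in the table. No match lay in the windows of RELA or TRAF1. The matches are shown so that they can be set beside the changes that follow, but a relation between the 2 was not tested. In GSK591 against DMSO the genes with a match had log2 changes of 1.98 (NFKB2), 1.85 (BIRC3), 1.17 (TNFAIP3), 0.30 (NFKBIA), 0.10 (NFKB1) and -0.27 (REL). Those without one had 1.58 (TRAF1) and -0.066 (RELA). Capitals mark the matches, and a run of over 10 capitals holds overlapping ones. The stretches at REL, TNFAIP3, NFKB1 and NFKB2 were kept to 30 bases around a match because most of them reach into annotated exons, and 2 of the 4 stretches of NFKB2 are shown.
NFKBIA, chr14:35404781-35404870, minus strand: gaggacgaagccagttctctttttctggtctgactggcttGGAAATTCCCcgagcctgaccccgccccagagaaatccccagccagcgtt
BIRC3, chr11:102317245-102317398, plus strand: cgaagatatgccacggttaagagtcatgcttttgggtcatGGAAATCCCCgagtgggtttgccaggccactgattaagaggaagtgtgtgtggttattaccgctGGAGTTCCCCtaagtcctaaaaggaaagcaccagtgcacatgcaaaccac
TNFAIP3, chr6:137867188-137867217, plus strand: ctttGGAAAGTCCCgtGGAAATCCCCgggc
NFKB2, first window with a match, chr10:102394462-102394491, plus strand: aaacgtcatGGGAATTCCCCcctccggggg
NFKB2, last window, chr10:102395674-102395703, plus strand: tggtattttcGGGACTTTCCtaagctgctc
NFKB1, chr4:102501300-102501329, plus strand: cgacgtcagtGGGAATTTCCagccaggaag
REL, chr2:60881518-60881547, plus strand: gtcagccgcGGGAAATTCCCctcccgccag
The match at NFKBIA begins 81 bases before the start, that at NFKB1 49 bases before it and those at TNFAIP3 67 and 55 bases before it. The pair at BIRC3 begins 199 and 135 bases before the start, the overlapping pair at REL 47 and 46 bases, and those shown of NFKB2 107 and 106 bases in the first window and 21 bases in the last.

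Levels are given as CPM, counts scaled to library size with TMM factors, or, where genes are set side by side, as the authors' FPKM, which is also scaled to gene length. Changes are log2 fold changes ± standard error from edgeR's quasi-likelihood test over all 18292 genes that passed the filter on low counts, and a gene was called at a Benjamini-Hochberg adjusted p under 0.05. Library totals lay between 31398075 and 51244525 counts. All 10 genes passed the filter, with at least 93 counts in each library (TRAF1, MS023) and at most 6140 (BIRC3, GSK591), so none entered the count test only because it was high in 1 group. Mitochondrial rRNA stood at 932.5 CPM in GSK591 replicate 3 and at no more than 20.7 CPM in the other libraries, and changes were recomputed without that library and DMSO replicate 1. The epithelial markers KRT8 and KRT18 were among the abundant mRNAs in all groups (2576, 4083 and 2984 CPM of KRT8 in MS023, GSK591 and DMSO). Other epithelial markers were less abundant, as EPCAM with 2787, 776 and 1658 counts over the libraries of MS023, GSK591 and DMSO. CLDN4 had 1288, 826 and 869 counts in the same order. The leukocyte markers PTPRC and CD3E had at most 2 counts per group. Other leukocyte markers were detected, with 1814, 2401 and 1932 counts of CD68 in MS023, GSK591 and DMSO. In that order CD14 had 841, 896 and 1019 counts, and ITGAM had 201, 829 and 343.

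Most of the set was higher in GSK591. Of the 10 genes, 9 were called in GSK591 against DMSO, against 62.6% of all genes tested. Of these 8 rose, against 30.1% of all genes, and REL fell, as 32.4% of all genes did, while RELA did not pass the test. The libraries of GSK591 and DMSO did not overlap in CPM for 9 of the 10 (65.6% of all genes), with GSK591 higher for 8 (32.0%) and lower for 1 (33.6%). In MS023 against DMSO 6 were called (51.0% of all genes), of which 4 were higher (25.1%) and 2 lower (25.9%). Here 7 did not overlap (57.5%), with 5 higher in MS023 (28.4%) and 2 lower (29.1%). The share of members called in MS023 was thus near that of all genes. MS023 against GSK591 called 9 (65.4%), with 7 lower (31.7%) and 2 higher (33.6%), and the libraries did not overlap for 9 (70.5%), with 7 lower (34.5%) and 2 higher (36.1%). The genes had a median log2 change of 0.74 in GSK591 against DMSO and of 0.09 in MS023 against DMSO, while the medians of all genes were 0.0058 and -0.0030. Both comparisons with DMSO use the same 3 control libraries. In bulk RNA such as this, fewer cells of a type and less RNA per cell cannot be told apart. The plot of CPM by library shows each value.

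**Figure D1:**
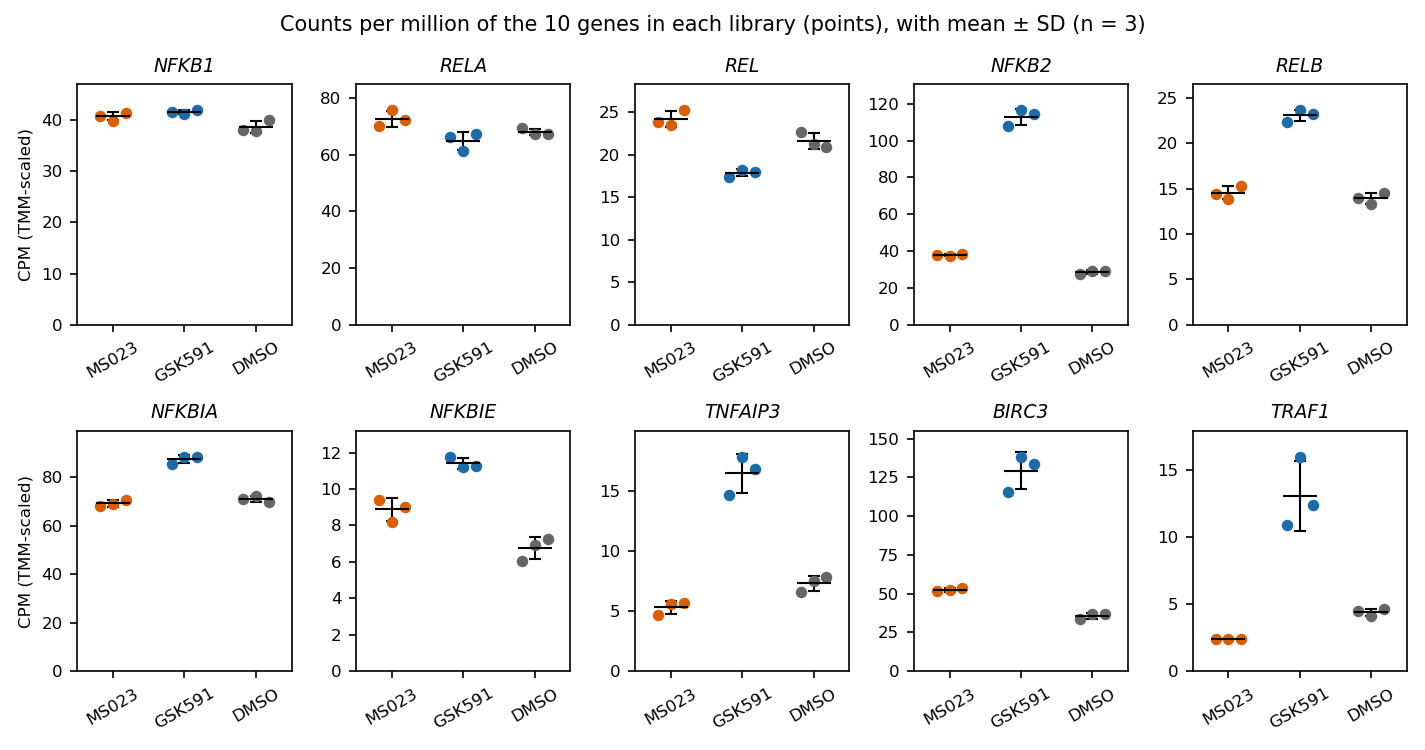
CPM of the 10 genes (y axis, starting at 0) in each library (points) of MS023, GSK591 and DMSO, with the mean and SD (n = 3). NFKB2, RELB, NFKBIA, NFKBIE, TNFAIP3, BIRC3 and TRAF1 are highest in all 3 GSK591 libraries, and REL is lowest there.

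Among the subunits, NFKB2, which codes for p100 and p52 (ENSG00000077150, hg19 chromosome 10, 104153867 to 104162281), changed most. It stood at 38.1, 37.2 and 38.2 CPM in the MS023 libraries, 108, 117 and 114 CPM in the GSK591 libraries and 27.4, 29.1 and 29.2 CPM in the DMSO libraries. No library of 1 group reached into another, with DMSO lowest and GSK591 far above both. The increase was 3.95-fold in GSK591 (log2 1.98 ± 0.041, edgeR adjusted p = 2.82e-13) and 1.32-fold in MS023 (log2 0.40 ± 0.041, adjusted p = 1.51e-06). MS023 was lower than GSK591 by 2.99-fold (log2 -1.58 ± 0.041, adjusted p = 1.58e-13).

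RELB, the usual partner of p52 (ENSG00000104856, hg19 chromosome 19, 45504688 to 45541452), rose in GSK591 alone of the comparisons with DMSO. Its levels were 14.4, 13.9 and 15.3 CPM in MS023, 22.4, 23.6 and 23.2 CPM in GSK591 and 14.0, 13.3 and 14.5 CPM in DMSO. The MS023 and DMSO libraries overlapped, and the GSK591 libraries lay above all of them. The log2 change was 0.73 ± 0.056 in GSK591 against DMSO (adjusted p = 3.62e-08) and -0.67 ± 0.055 in MS023 against GSK591 (adjusted p = 6.44e-08). In MS023 against DMSO it was 0.062 ± 0.057 (adjusted p = 0.389), with a 95% interval of -0.061 to 0.18.

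The canonical subunits moved little. RELA (ENSG00000173039, hg19 chromosome 11, 65421067 to 65430565) had 70.1, 75.8 and 72.4 CPM in MS023, 66.2, 61.4 and 67.4 CPM in GSK591 and 69.3, 67.3 and 67.5 CPM in DMSO. Its GSK591 and DMSO libraries overlapped, at a log2 difference of -0.066 ± 0.043 (adjusted p = 0.196, 95% interval -0.16 to 0.026). All 3 MS023 libraries lay above the DMSO libraries by a narrow margin, but the difference of 0.10 ± 0.043 did not pass (adjusted p = 0.0709). It did pass when DMSO replicate 1 was left out (0.0401), without MS023 replicate 1 (0.0416) or without GSK591 replicate 1 or 3 (0.0444 and 0.0440), scaled by total counts (0.0119) and in the authors' FPKM (0.0409). RELA was higher in MS023 than in GSK591 (log2 0.16 ± 0.043, adjusted p = 0.00367).

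NFKB1, the gene of p105 and p50 (ENSG00000109320, hg19 chromosome 4, 103422486 to 103538459), had 40.9, 39.9 and 41.4 CPM in MS023, 41.6, 41.2 and 42.0 CPM in GSK591 and 38.2, 37.9 and 40.0 CPM in DMSO. The 3 groups thus lay within a few CPM of each other. Its small increase in GSK591 passed (log2 0.10 ± 0.038, adjusted p = 0.0273). That call ended with no filter on low counts (adjusted p = 0.138), without DMSO replicate 1 and GSK591 replicate 3 together (0.0871) and in FPKM (0.395). The difference was 0.074 ± 0.038 in MS023 against DMSO (adjusted p = 0.117, or 0.0315 scaled by total counts), and -0.029 ± 0.038 in MS023 against GSK591 (adjusted p = 0.509, 95% interval -0.11 to 0.051). NFKB1 was also the 1 gene of the set without a call in the F-test among the 3 groups (adjusted p = 0.0548), which 78.1% of all genes passed.

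REL codes for c-Rel, a subunit best known from lymphocytes (ENSG00000162924, hg19 chromosome 2, 61108656 to 61158745), and was the 1 gene of the set to fall in GSK591. It stood at 23.9, 23.6 and 25.3 CPM in MS023, 17.4, 18.2 and 18.03 CPM in GSK591 and 22.7, 21.2 and 20.9 CPM in DMSO. Each group kept to its own range, with GSK591 lowest and MS023 highest. REL fell by 0.27 on the log2 scale in GSK591 against DMSO (SE 0.05, adjusted p = 3.01e-04) and was higher by 0.44 ± 0.050 in MS023 than in GSK591 (adjusted p = 2.10e-06). The increase in MS023 against DMSO (log2 0.17 ± 0.049, adjusted p = 0.0105) had an adjusted p of 0.0526 when DMSO replicate 3 was left out and of 0.0780 when MS023 replicate 3 was, which ended the call.

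The authors' FPKM allow the 5 subunits to be set side by side. Their summed level was 59.4 ± 1.19 FPKM in MS023, 84.6 ± 2.09 FPKM in GSK591 and 52.4 ± 0.566 FPKM in DMSO (SD, n = 3 each). NFKB2 made up 23.0 ± 1.28% of the sum in MS023, 47.7 ± 1.34% in GSK591 and 19.3 ± 1.83% in DMSO. The share of RELA was 40.3 ± 0.648% in MS023, 24.9 ± 1.05% in GSK591 and 42.0 ± 0.466% in DMSO. RELA itself held nearly the same FPKM in GSK591 and DMSO (21.1 ± 0.659 and 22.02 ± 0.0536), while NFKB2 stood at 40.4 ± 1.77 and 10.1 ± 1.01 FPKM and was the most abundant subunit mRNA in GSK591. RELB kept a similar share throughout, at 9.22 ± 0.306%, 10.3 ± 0.289% and 9.90 ± 0.495% in MS023, GSK591 and DMSO, and the share of REL was 12.7 ± 0.603%, 6.37 ± 0.0332% and 12.5 ± 0.426% in the same order. These are levels of mRNA, and the files hold no measure of protein processing or of dimers.

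**Figure D2:**
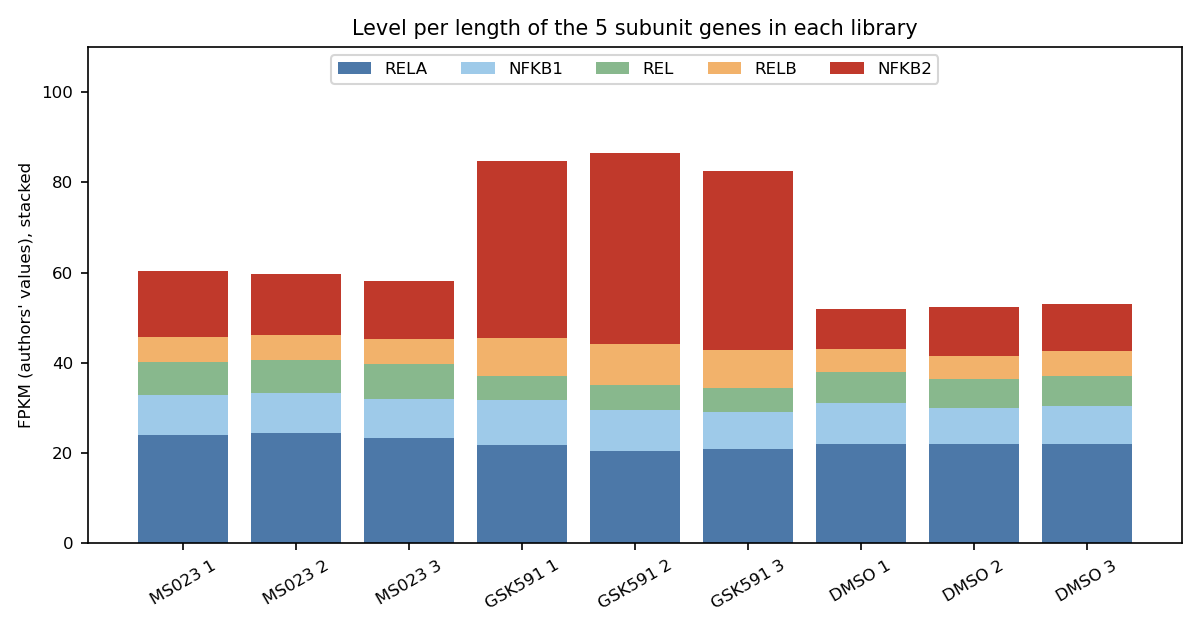
Authors' FPKM of the 5 subunit genes, stacked, in each library of MS023, GSK591 and DMSO. NFKB2 makes up 47.7% of the column in GSK591 and 19.3% in DMSO, while the height of the RELA part is alike in both.

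Each of the 5 feedback genes rose in GSK591. BIRC3, which codes for the ubiquitin ligase cIAP2 (ENSG00000023445, hg19 chromosome 11, 102188215 to 102210134), changed most among them in that comparison. The levels were 51.4, 52.3 and 53.9 CPM in MS023, 116, 138 and 134 CPM in GSK591 and 33.5, 37.0 and 36.8 CPM in DMSO. As for NFKB2, the 3 groups did not overlap, and MS023 lay between the others. The increase was 3.62-fold in GSK591 (log2 1.85 ± 0.060, adjusted p = 5.63e-12) and 1.47-fold in MS023 (log2 0.55 ± 0.059, adjusted p = 2.42e-06), and MS023 was 2.46-fold lower than GSK591 (log2 -1.30 ± 0.059, adjusted p = 6.72e-11).

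TRAF1, an adaptor that binds cIAP proteins at TNF-family receptors (ENSG00000056558, hg19 chromosome 9, 123664671 to 123691451), had the lowest FPKM of the set in each group and moved in opposite directions under the 2 inhibitors. It had 2.38, 2.42 and 2.42 CPM in MS023, 10.9, 15.99 and 12.4 CPM in GSK591 and 4.47, 4.10 and 4.60 CPM in DMSO. The MS023 libraries were lowest and nearly alike, and the GSK591 libraries were highest and the most spread. TRAF1 rose 2.996-fold in GSK591 (log2 1.58 ± 0.12, adjusted p = 3.36e-08) and was 1.82-fold lower in MS023 (log2 -0.87 ± 0.15, adjusted p = 1.85e-04). The difference between MS023 and GSK591 was the largest of the set, 5.46-fold (log2 -2.45 ± 0.13, adjusted p = 4.28e-10). On log2(FPKM + 1), which shrinks the changes of low genes, the decrease in MS023 was -0.28 (adjusted p = 0.0472), and with no filter on FPKM the call was lost (adjusted p = 0.0926). TRAF1 passed the filter on FPKM through its GSK591 libraries alone, with no MS023 or DMSO library at 1 FPKM.

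TNFAIP3, which codes for A20, an enzyme that edits ubiquitin chains on signalling proteins (ENSG00000118503, hg19 chromosome 6, 138188351 to 138204449), had the same order of groups as TRAF1. Its levels were 4.66, 5.59 and 5.66 CPM in MS023, 14.7, 17.8 and 16.8 CPM in GSK591 and 6.60, 7.50 and 7.80 CPM in DMSO. None of the groups overlapped. It rose 2.25-fold in GSK591 (log2 1.17 ± 0.091, adjusted p = 4.50e-08), and was lower in MS023 than in DMSO (log2 -0.47 ± 0.10, adjusted p = 0.00123) and than in GSK591 (log2 -1.64 ± 0.094, adjusted p = 1.02e-09). In FPKM the MS023 libraries (1.69, 2.11 and 1.61) overlapped the DMSO libraries (1.61, 2.34 and 2.17), and the decrease was -0.11 without a call (adjusted p = 0.513).

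The IkB genes changed less. NFKBIA, the gene of IkB-alpha (ENSG00000100906, hg19 chromosome 14, 35870717 to 35873955), had 68.1, 68.7 and 70.6 CPM in MS023, 85.5, 88.4 and 88.3 CPM in GSK591 and 70.8, 72.2 and 69.7 CPM in DMSO. The GSK591 libraries lay above the rest, and the MS023 and DMSO libraries overlapped. The increase in GSK591 was 1.23-fold (log2 0.30 ± 0.033, adjusted p = 1.82e-06), and MS023 was lower than GSK591 (log2 -0.34 ± 0.033, adjusted p = 4.31e-07). In MS023 against DMSO the log2 difference was -0.037 ± 0.033 (adjusted p = 0.380, 95% interval -0.11 to 0.035), with the opposite sign when scaled by total counts (0.0028).

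NFKBIE, the gene of IkB-epsilon (ENSG00000146232, hg19 chromosome 6, 44225903 to 44233500), rose with both inhibitors. It had 9.41, 8.20 and 9.02 CPM in MS023, 11.8, 11.2 and 11.3 CPM in GSK591 and 6.07, 6.94 and 7.24 CPM in DMSO. The groups did not overlap, with DMSO lowest and GSK591 highest. The log2 change was 0.75 ± 0.078 in GSK591 (adjusted p = 9.70e-07) and 0.39 ± 0.079 in MS023 (adjusted p = 8.18e-04), and MS023 was lower than GSK591 by a log2 change of -0.36 ± 0.075 (adjusted p = 7.09e-04). In the authors' FPKM neither the increase in MS023 (adjusted p = 0.0758) nor the difference between the inhibitors (0.424) was called, and without a filter on FPKM the increase in GSK591 was not either (log2 0.47, adjusted p = 0.0565).

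**Figure D3:**
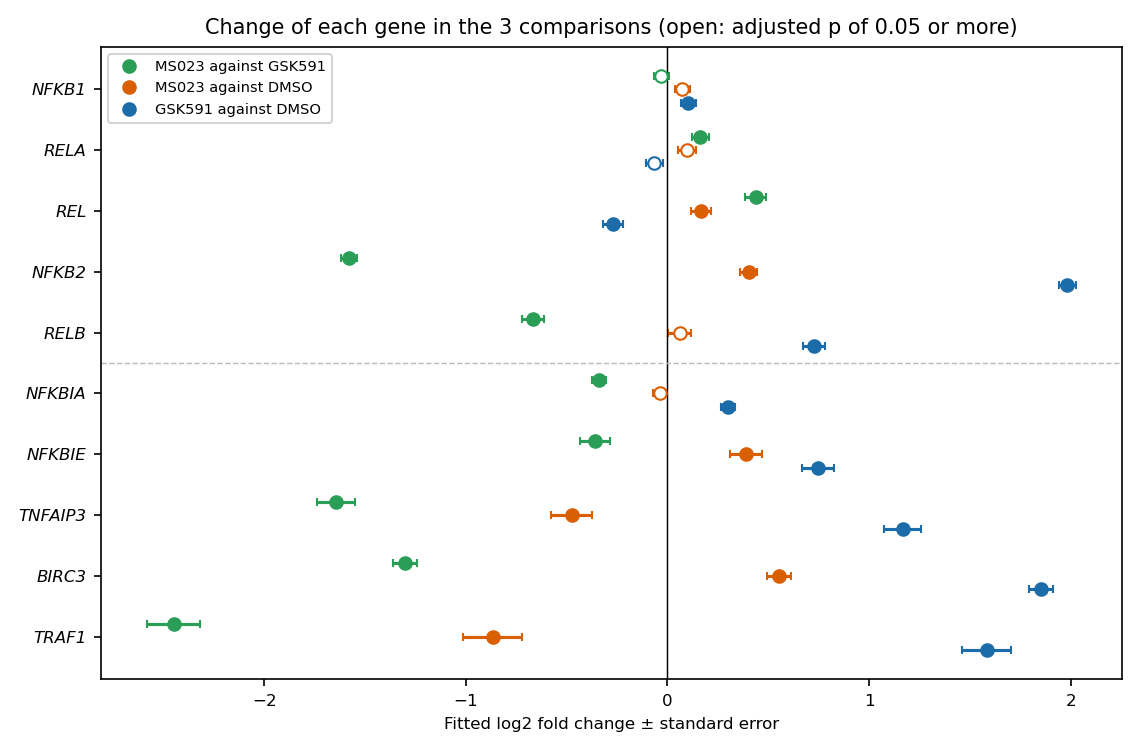
Fitted log2 fold change ± standard error of each gene (rows, subunits above the dashed line and feedback genes below it) for MS023 against GSK591, MS023 against DMSO and GSK591 against DMSO. NFKB2 and BIRC3 lie right of 0 in both comparisons with DMSO, TNFAIP3 and TRAF1 lie left of 0 in MS023 and right of 0 in GSK591, and open circles are values without a call.

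Set side by side per length, NFKBIA had the highest FPKM of the 10 genes in each group (40.8 ± 0.962 in MS023, 51.5 ± 1.504 in GSK591 and 42.3 ± 1.83 in DMSO, SD, n = 3) and TRAF1 the lowest (0.313 ± 0.0183, 2.10 ± 0.426 and 0.595 ± 0.0470). In MS023 the order from the top was NFKBIA, RELA, NFKB2, BIRC3, NFKB1, REL, RELB, NFKBIE, TNFAIP3 and TRAF1, and no neighbours in it overlapped. In GSK591, NFKB2 came next after NFKBIA (40.4 ± 1.77), followed by BIRC3 (23.6 ± 2.43) and RELA (21.1 ± 0.659), although the libraries of BIRC3 and RELA overlapped. NFKB1 and RELB overlapped there as well, and so did REL, TNFAIP3 and NFKBIE as neighbours in the order. In DMSO, RELA came next after NFKBIA, NFKB2 overlapped NFKB1, and BIRC3 overlapped REL.

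Genes with the most similar profiles to NFKB2 and NFKBIA were taken by Pearson correlation of log2 CPM over the 9 libraries, among 13819 other genes of at least 1 CPM. With 3 groups of 3, this measure follows mainly the 3 group means and is a description. Those closest to NFKB2 were CCND1, which codes for cyclin D1, GPRC5B, ZBTB46, SAMD9 and the phospholipase PLA2G4C, at r between 0.997 and 0.998. Closest to NFKBIA were KITLG, which codes for the ligand of KIT, the zinc exporter SLC30A1, ANKRD2, ZCCHC6 and GALNT1, at r between 0.994 and 0.998. No gene of the set was among either 5.

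Genes of the pathway outside the set were counted by role, beside 30.1% of all genes higher and 32.4% lower in GSK591, and 25.1% higher and 25.9% lower in MS023, each against DMSO. Some list genes would have failed the filter on low counts without the libraries of 1 group, and so were tested because of their level there. They are left out of the counts, the medians and the plot by role. These were TLR4 among the receptors, LTB and TNFSF14 among the ligands, and CCL5, CCL20, IL6, PTX3 and MMP9 among the targets. LTB needed the libraries of both DMSO and GSK591 to pass.

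Upstream of the subunits, the kinase that starts the non-canonical arm rose together with NFKB2. MAP3K14, which codes for NIK, averaged 46.2 ± 2.39 CPM in MS023, 143 ± 5.12 CPM in GSK591 and 36.1 ± 1.497 CPM in DMSO. Its log2 change was 1.99 ± 0.046 in GSK591 (adjusted p = 6.93e-13) and 0.36 ± 0.046 in MS023 (adjusted p = 1.48e-05), both close to those of NFKB2. Of 12 IKK and upstream kinase genes, including MAP3K14, 4 rose and 3 fell in GSK591 (median log2 0.018), and 5 rose and 1 fell in MS023 (median 0.064). The counts in GSK591 are near the shares of all genes. IKBKB, a catalytic subunit of the canonical IKK complex, rose by 0.44 ± 0.045 in GSK591, while CHUK, its other catalytic subunit, stood at -0.020 ± 0.033 (adjusted p = 0.618). Of the TAK1 kinase complex, MAP3K7 and TAB1 fell in GSK591 (-0.25 ± 0.036 and -0.37 ± 0.046), TAB3 rose (0.34 ± 0.040) and TAB2 stood at -0.045 ± 0.037 (adjusted p = 0.314).

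Of 17 receptor adaptors, 7 rose and 2 fell in GSK591 (median log2 0.14), and 6 rose and 2 fell in MS023 (median 0.10). IRAK2, a kinase-like adaptor of interleukin-1 and Toll-like receptors, rose 4.03-fold in GSK591 (log2 2.01 ± 0.067) and stood at -0.018 ± 0.072 in MS023 (adjusted p = 0.852). In MS023 the kinase IRAK4 fell (-0.82 ± 0.065) and TRAF5 rose (0.59 ± 0.057). BIRC2, which codes for cIAP1, the close relative of cIAP2, was named after its values were seen. Its log2 differences were -0.017 ± 0.050 in GSK591 (adjusted p = 0.782) and -0.10 ± 0.050 in MS023 (adjusted p = 0.115).

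Among 4 further genes of the IkB family, which includes nuclear members that can also act as coactivators, NFKBIZ rose in GSK591 (0.69 ± 0.081) and in MS023 (0.57 ± 0.081), while BCL3, whose product binds p50 and p52 dimers in the nucleus, fell in both (-0.94 ± 0.078 and -0.46 ± 0.077). NFKBIB fell slightly in GSK591 (-0.22 ± 0.052), and NFKBID passed in neither comparison (adjusted p = 0.0628 and 0.135). Of 12 genes for ubiquitin writers and editors, 3 rose and 5 fell in GSK591 (median log2 -0.037), and 3 rose and 3 fell in MS023 (median 0.032), near the shares of all genes. TAX1BP1, an adaptor of A20, rose in GSK591 (0.56 ± 0.044) and was lower in MS023 (-0.17 ± 0.044), the same directions as TNFAIP3 had in the counts. In FPKM the decrease of TNFAIP3 in MS023 was not called. The deubiquitinase CYLD rose in GSK591 (0.44 ± 0.047), and ITCH, a ligase that works with A20, fell (-0.38 ± 0.037). RNF31, the catalytic part of the linear ubiquitin ligase, rose in MS023 (0.26 ± 0.059), but had the opposite sign in FPKM without a call (-0.062, adjusted p = 0.737).

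Of 13 receptor genes counted, 6 rose and 3 fell in GSK591 (median log2 0.15), and 7 rose and 3 fell in MS023 (median 0.47). The TNF receptor TNFRSF1A fell in GSK591 (-0.52 ± 0.043) and LTBR, the lymphotoxin receptor that feeds the non-canonical arm, fell in GSK591 (-0.35 ± 0.039) and rose in MS023 (0.48 ± 0.039). Other receptors of that arm rose in GSK591, with CD40 at 0.58 ± 0.088, TNFRSF12A at 1.03 ± 0.10 and TNFRSF11A at 0.26 ± 0.054. In MS023, CD40 (1.13 ± 0.084) and TNFRSF11A (0.47 ± 0.053) rose, and TNFRSF12A stood at -0.19 ± 0.10 (adjusted p = 0.138). The Toll-like receptors TLR3 and TLR1 rose in GSK591 (1.43 ± 0.13 and 1.09 ± 0.060), and in MS023 (1.07 ± 0.13 and 0.73 ± 0.061). Ligands were mostly scarce, and the genes of TNF and CD40L had no count in any library. Of 4 ligand genes counted, 3 rose and none fell in GSK591, while in MS023 TNFSF12 rose and IL1A, IL1B and IL18 fell. IL1A had 7, 74 and 41 counts over the MS023, GSK591 and DMSO libraries, and IL1B had 16, 141 and 42. IL18, the 1 abundant ligand among them, averaged 40.8 ± 0.653 CPM in MS023, 128 ± 6.87 CPM in GSK591 and 58.4 ± 3.77 CPM in DMSO (log2 -0.52 ± 0.049 in MS023 and 1.14 ± 0.049 in GSK591 against DMSO, adjusted p = 7.56e-07 and 7.94e-11).

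Target genes outside the set, a list also chosen with earlier results of these data known, were counted for the same 3 comparisons. Of 19 counted, 14 rose and 4 fell in GSK591 (median log2 0.37), 5 rose and 8 fell in MS023 (median -0.16), and 4 were higher and 13 lower in MS023 against GSK591 (median -0.60; 33.6% of all genes were higher and 31.7% lower there). VCAM1, an adhesion molecule, had 5, 332 and 68 counts over the MS023, GSK591 and DMSO libraries, and BCL2A1, an inhibitor of apoptosis, had 20, 516 and 181. Both had the group order of TRAF1 and TNFAIP3. The chemokine gene CCL2 rose in GSK591 (log2 2.82 ± 0.16) and had 0.47 ± 0.19 in MS023 (adjusted p = 0.0538). CXCL8, another chemokine, rose in GSK591 (0.98 ± 0.12) and fell in MS023 (-1.36 ± 0.15), and so did PLAU, which codes for urokinase (1.24 ± 0.042 and -2.03 ± 0.046). GADD45B fell in GSK591 (-1.35 ± 0.063) and rose in MS023 (0.42 ± 0.056). PTGS2, which codes for a prostaglandin synthase, had the same order of groups, at 164 ± 3.10 CPM in MS023, 65.7 ± 3.09 CPM in GSK591 and 130 ± 4.09 CPM in DMSO. LCN2 fell in GSK591 as well (-1.02 ± 0.19).

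**Figure D4:**
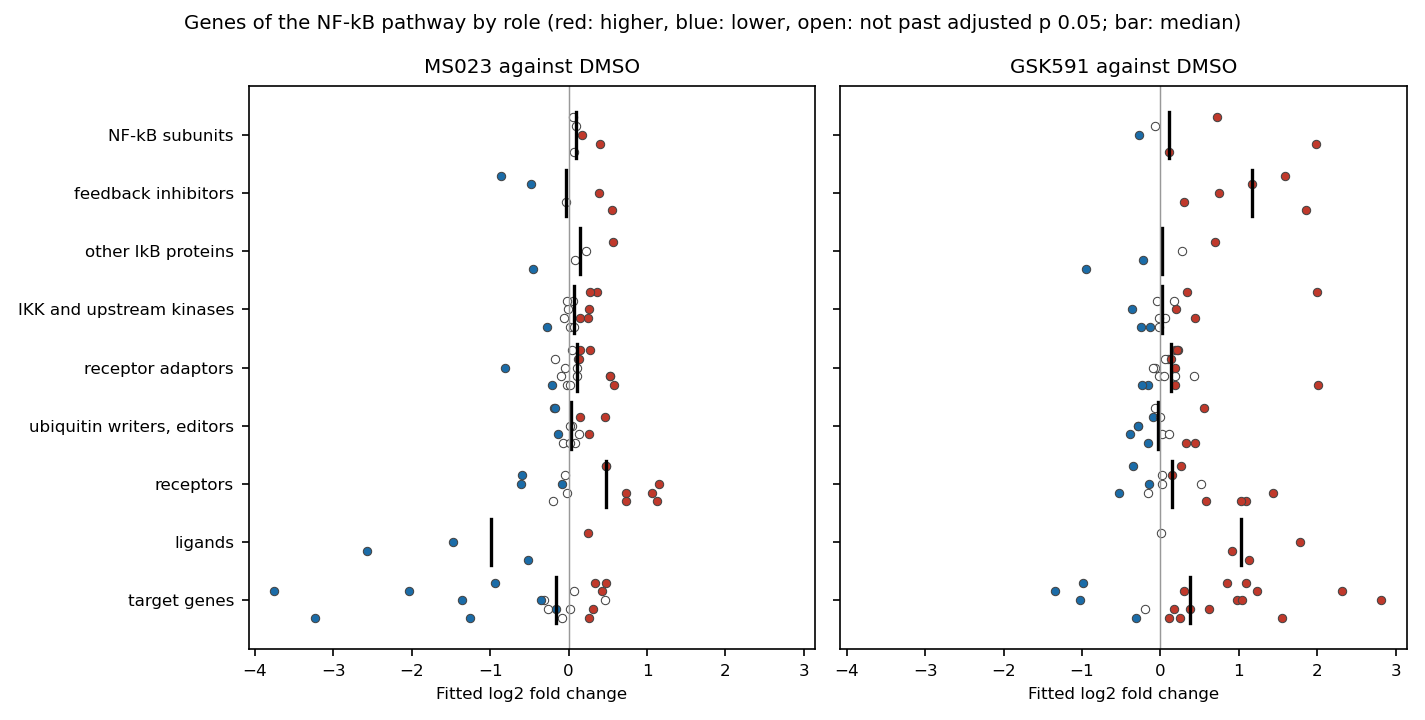
Fitted log2 fold change (x axis) of each counted gene by role in the NF-kB pathway, for MS023 against DMSO (left) and GSK591 against DMSO (right), with the list's median as a bar. The feedback inhibitors and target genes have medians of -0.037 and -0.16 in MS023, and of 1.17 and 0.37 in GSK591.

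Markers of other cell types were read beside these changes. Over the 6 leukocyte markers the summed level lay between 20.9 and 22.1 CPM in MS023, 33.9 and 35.1 CPM in GSK591 and 25.98 and 27.4 CPM in DMSO, the same order of groups as for TRAF1 and TNFAIP3. Nearly all of it came from CD14, CD68 and ITGAM. CD68 and ITGAM had that order, while CD14 was highest in DMSO (6.40, 7.46 and 8.27 CPM in MS023, GSK591 and DMSO). PTPRC, the marker of all leukocytes, had 2 counts over the libraries of each group, CD3E had 1 in MS023 and 0 in the others, and SPI1 had 3, 14 and 0. The 6 fibroblast and endothelial markers found summed to between 2.20 and 2.76 CPM in MS023, 3.84 and 3.97 CPM in GSK591 and 2.10 and 2.31 CPM in DMSO, with DCN at 0 in both treated groups. The part of these markers in the results was not tested. The 5 epithelial markers summed to between 3918 and 4112 CPM in MS023, 6077 and 6289 CPM in GSK591 and 4843 and 4971 CPM in DMSO. KRT8, KRT18 and CDH1 had that order of groups, and KRT8 and KRT18 made up nearly all of the sum. EPCAM went the other way, at 21.0, 6.43 and 13.5 CPM in MS023, GSK591 and DMSO. CLDN4 was also highest in MS023, at 9.77 CPM against 6.83 CPM in GSK591 and 7.05 CPM in DMSO. At the RNA level PRMT5 stood at 80.8 ± 2.24 CPM in GSK591 and 79.6 ± 4.65 CPM in DMSO (adjusted p = 0.700), and PRMT1 at 186 ± 9.48 CPM in MS023 and 172 ± 9.07 CPM in DMSO (adjusted p = 0.0682). PRMT5 fell in MS023 (log2 -0.16 ± 0.048) and PRMT1 in GSK591 (-0.43 ± 0.050). In the authors' FPKM, however, the PRMT5 libraries of MS023 and DMSO overlapped (41.4 ± 0.765 and 42.3 ± 1.37). CARM1 rose in MS023 (0.30 ± 0.059) and fell in GSK591 (-0.21 ± 0.059), and PRMT3 fell in both (-0.44 ± 0.041 and -0.22 ± 0.041).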

How the data were processed

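RNA-seq of 9 A549 libraries was used. The authors deposited 1 table of read counts per gene, whole numbers without normalisation, and 9 tables of FPKM with positions on hg19, in the layout of Cufflinks per the file headers. The submitters' processing notes name cutadapt, STAR, featureCounts and DESeq2 with hg19. For versions, annotation and strand setting: not given in the sources used here. Without the strand setting, reads of overlapping genes cannot be told apart: on hg19, NFKB1, REL and TNFAIP3 overlap annotated genes, of which those in the count table had at most 6 counts in a library, and RP11-373L24.1, which overlaps 5702 bases of REL, was not analysed here.

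The count table was fitted in edgeR 4.0.16 (R 4.3.3): filterByExpr (minimum count 10, minimum total 15), TMM scaling and a quasi-likelihood fit with group as the only term over all 9 libraries, two-sided, adjusted by Benjamini-Hochberg over 18292 genes. The standard error is the size of the log2 change divided by the square root of F, and 95% intervals are from the same fit. The errors hold the spread between libraries of a group. Reads are not independent molecules, and of amplification noise the errors hold only the part that differs among libraries. Alternatives were other scalings and filters, a replicate block, libraries left out, DESeq2 1.42.0, and limma 3.58.1 on the log2 of FPKM plus 1 or plus 0.1. A fit on only the 6 libraries compared and a threshold of adjusted p under 0.01 were used as well.

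The members, lists and tests were chosen with earlier results of these data known. Other genes named were up to 2 per list, direction and comparison (the largest called changes at a mean of at least 1 CPM with no overlap of libraries) and the 5 most like NFKB2 and NFKBIA. CHUK, TAB2, TAB3, TNFRSF11A, NFKBID, IL1A, IL1B, BIRC2, cell type markers and PRMT enzymes were named beside them, and 1 marker gene is not reported here. Leaving out list genes that would have failed the filter without the libraries of 1 group was chosen after seeing the data. Replicate libraries differed by more than counting noise (chi-square per degree of freedom of at least 2.24). The value was highest for GSK591 replicate 3 against GSK591 replicates 1 and 2 (52.7 and 87.0). DMSO replicate 1 against DMSO replicates 2 and 3 came next (34.4 and 31.5).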

Additional observations from a re-analysis of the deposited data

How the results depend on the processing

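Of the 24 calls among the 10 genes, 17 kept direction and call in each of the 21 alternatives, and none of the 24 reversed. TRAF1 entered the FPKM fits with a filter through its GSK591 libraries alone, so those fits are no check on its calls. Over all members and comparisons, 597 values kept both, 20 lost a call and 12 gained one. The number lower in MS023 against DMSO was 2, and 1 in limma on log2(FPKM + 1) or log2(FPKM + 0.1) with a filter and 0 on log2(FPKM + 1) without one. Opposite signs were found for NFKBIA in MS023 scaled by total counts (0.0028) and, in the 3 FPKM fits, for RNF31 in MS023 against DMSO (-0.062, -0.066 and -0.062) and PRMT5 in MS023 against GSK591 (0.064, 0.066 and 0.064). The cause was not tested. FPKM fits with a filter called 2792 and 2778 genes higher in GSK591 (5510 in edgeR), 2835 and 2815 higher and 2947 and 2955 lower in MS023 (4594 and 4733), and without a filter 2851 and 2624 in MS023. They called 3069 and 3051 lower in MS023 against GSK591 (5804). Leaving out 1 library at a time gave 3 to 5 genes of the set higher and 2 lower in MS023, and 8 higher and 1 lower in GSK591. The replicate block left the counts of the set unchanged, with 8 higher and 1 lower in GSK591 and 4 higher and 2 lower in MS023. Same-numbered libraries deviated together in 3 of 9 pairs (r of 0.10, 0.55 and 0.59, with the lowest pair at -0.79), so the numbers were not taken as pairs. Some libraries of different numbers also deviated together, as DMSO 2 with MS023 1 (r = 0.69) and DMSO 1 with GSK591 3 (0.64). Others deviated apart, as DMSO 1 with GSK591 2 (-0.76). The main fit has no term for such shared deviations, and their cause was not tested. The lowest depth behind a value of the set was 93 to 122 counts a library, for TRAF1 in MS023.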
